A study of Homo sapiens with 16 samples.

Results

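The genes described are MET, the receptor of hepatocyte growth factor (HGF), and 9 genes whose products work beside it: the related receptor MST1R, the serine proteases ST14 and HPN, the protease inhibitors SPINT1 and SPINT2, the adaptors GAB1 and GRB2, the ubiquitin ligase CBL and the phosphatase PTPN11. They were chosen by name, and every array probe annotated to one of these 10 gene names, of 42665 names on the array, was taken. That gave 12 probes, of which 11 probes of 9 genes were bright enough to be tested among 34600 tested probes. RNA was measured on one-colour microarrays in 16HBE cells, a nontumorigenic human bronchial epithelial line immortalised with SV40 large T antigen. Of the 4 groups of 4 arrays, 16HBE-WT cells carry wild-type MET, while 16HBE-ex14 cells are 1 clone (clone F) in which CRISPR/Cas9 cutting at the exon 14 splice donor makes the MET transcript skip exon 14. The groups 16HBE-WT+HGF and 16HBE-ex14+HGF received 20 ng/ml HGF for 24 h, and the 16HBE-WT and 16HBE-ex14 groups received none. The 2 h without serum before HGF are given alike for all 16 samples. Since ex14 is a single clone, a difference that comes from the exon and one that comes from the clone cannot be told apart. All 16 arrays came from 2 slides of 8 arrays, each with 2 arrays of every group.

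HGF is secreted as an inactive single chain, which serine proteases of the cell surface or of serum cut into the active ligand, and Kunitz-type inhibitors such as SPINT1 and SPINT2 hold those proteases in check. Once bound by HGF, MET phosphorylates its own tail, where GRB2 and GAB1 dock and recruit PTPN11 and other enzymes of the RAS-ERK and PI3K routes. The segment encoded by exon 14 holds the tyrosine that CBL binds to mark the receptor for degradation, and this segment is lost when the exon is skipped, as in a subset of lung cancers.

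The sequences that the main values rest on are shown 5′ to 3′ in lower case, as the array's design gives them, with the positions on hg19. The probes of MET and MST1R were the readings of the receptors, and the 2 PTPN11 probes were those that differed in result. The first 30 bases are shown for 3 of them, and all 60 for the PTPN11 probe that spans a splice junction.
MET, chr7:116438290-116438349, plus strand: gtgtctggacagattgtgggagtaagtgat
MST1R, chr3:49924693-49924752, minus strand: tcggcccacttgacttagttcttgggctgg
PTPN11 junction probe, chr12:112915513-112915698, plus strand: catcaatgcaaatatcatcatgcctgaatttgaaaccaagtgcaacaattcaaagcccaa
PTPN11 3′ probe, chr12:112946884-112946943, plus strand: gcttttgttttctgtatgttgttgggggat

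MET RNA was abundant in all groups and no difference between groups passed the test. Levels are given as log2 of the spot's intensity minus the 75th percentile of the same array, so that a level of 0 is the 75th percentile of that array and 1 unit is a doubling. The array held 1 MET probe, which lies at position 6486 of the transcript, in the 3′ untranslated region and downstream of exon 14. It therefore read the transcript with and without exon 14 alike, and it checks neither the skipping nor the labels. The 16HBE-WT arrays had MET levels of 4.82, 4.85, 5.18 and 5.02, and the 16HBE-WT+HGF arrays had 4.86, 4.96, 5.03 and 5.14. The 16HBE-ex14 arrays had 4.91, 5.06, 5.26 and 5.18, and the 16HBE-ex14+HGF arrays had 5.12, 5.05, 5.21 and 5.26. All 4 groups overlapped, and within each group the mean of the arrays of slide 2 was above that of slide 1, by 0.21 on average over the groups.

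From lowest to highest, the group means of MET were 4.97 ± 0.17 (16HBE-WT), 5.00 ± 0.12 (16HBE-WT+HGF), 5.10 ± 0.15 (untreated 16HBE-ex14) and 5.16 ± 0.10 (16HBE-ex14+HGF), with SD and n = 4 each, and no pair of neighbours was apart by more than these SDs. The tests were made with limma, fitted to all tested probes and all 16 arrays, with p adjusted over all probes by Benjamini-Hochberg. A probe was called when its adjusted p was below 0.05 and its change exceeded 1.5-fold, which is 0.58 on the log2 scale. HGF changed the MET level by 0.03 in 16HBE-WT (95% confidence interval -0.20 to 0.26, limma adjusted p = 1) and by 0.06 in 16HBE-ex14 (-0.17 to 0.29, limma adjusted p = 0.872). MET in 16HBE-ex14 was 0.14 above 16HBE-WT without HGF (-0.09 to 0.36, limma adjusted p = 0.445) and 0.16 above it with HGF (-0.07 to 0.39, limma adjusted p = 0.333). Each of these intervals lay inside 1.5-fold in both directions. On the ratio scale, the MET signal in 16HBE-ex14 was 1.1 times that in 16HBE-WT without HGF and 1.12 times with HGF. With another background correction, normexp, the difference with HGF was 0.27 (limma adjusted p = 0.0247), still under 1.5-fold, and the sign of the HGF changes turned under other scalings (-0.08 in 16HBE-WT and -0.10 in 16HBE-ex14 when arrays were scaled to their median).

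MST1R, which encodes RON, the receptor of macrophage-stimulating protein and the closest relative of MET, was higher in the clone. The 16HBE-WT arrays had levels of 1.70, 1.78, 2.04 and 1.99, and those with HGF had 2.05, 1.92, 1.92 and 2.17. The 16HBE-ex14 arrays had 2.11, 2.25, 2.32 and 2.40, and those with HGF had 2.64, 2.36, 2.78 and 2.56. Every 16HBE-ex14 array was thus above every 16HBE-WT array at the same HGF state, and 16HBE-ex14+HGF was the group with the highest mean, 2.59 ± 0.18 (SD, n = 4) against 1.88 ± 0.16 in 16HBE-WT.

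The genotype difference of MST1R was 0.39 without HGF (SE 0.11, 1.31-fold, limma adjusted p = 0.0258) and 0.57 with HGF (SE 0.11, 1.49-fold, limma adjusted p = 0.00234), both under the 1.5-fold limit. On slide 1 the difference with HGF was 0.52 and on slide 2 it was 0.63. The HGF change of MST1R was 0.13 in 16HBE-WT (limma adjusted p = 1) and 0.31 in 16HBE-ex14 (95% interval 0.07 to 0.56, limma adjusted p = 0.19), and the difference between the 2 HGF changes was 0.18 (-0.16 to 0.52, limma adjusted p = 1). Without HGF, the adjusted p rose above 0.05 when 16HBE-WT replicate 1 (0.0847) or 2 (0.07), or 16HBE-ex14 replicate 3 (0.0623) or 4 (0.0777), was left out, with changes of 0.33 to 0.37. It was also above 0.05 with the spike-in scaling (0.0671), with dim probes kept (0.0614), and when only the arrays of the compared groups were fitted (0.0674). With HGF, the change passed 1.5-fold without 16HBE-ex14+HGF replicate 2 (0.65) or 16HBE-WT+HGF replicate 4 (0.62), with normexp (0.60), and when arrays were scaled to their median (0.67) or to the E1A spike-in probes (0.61).

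**Figure D1:**
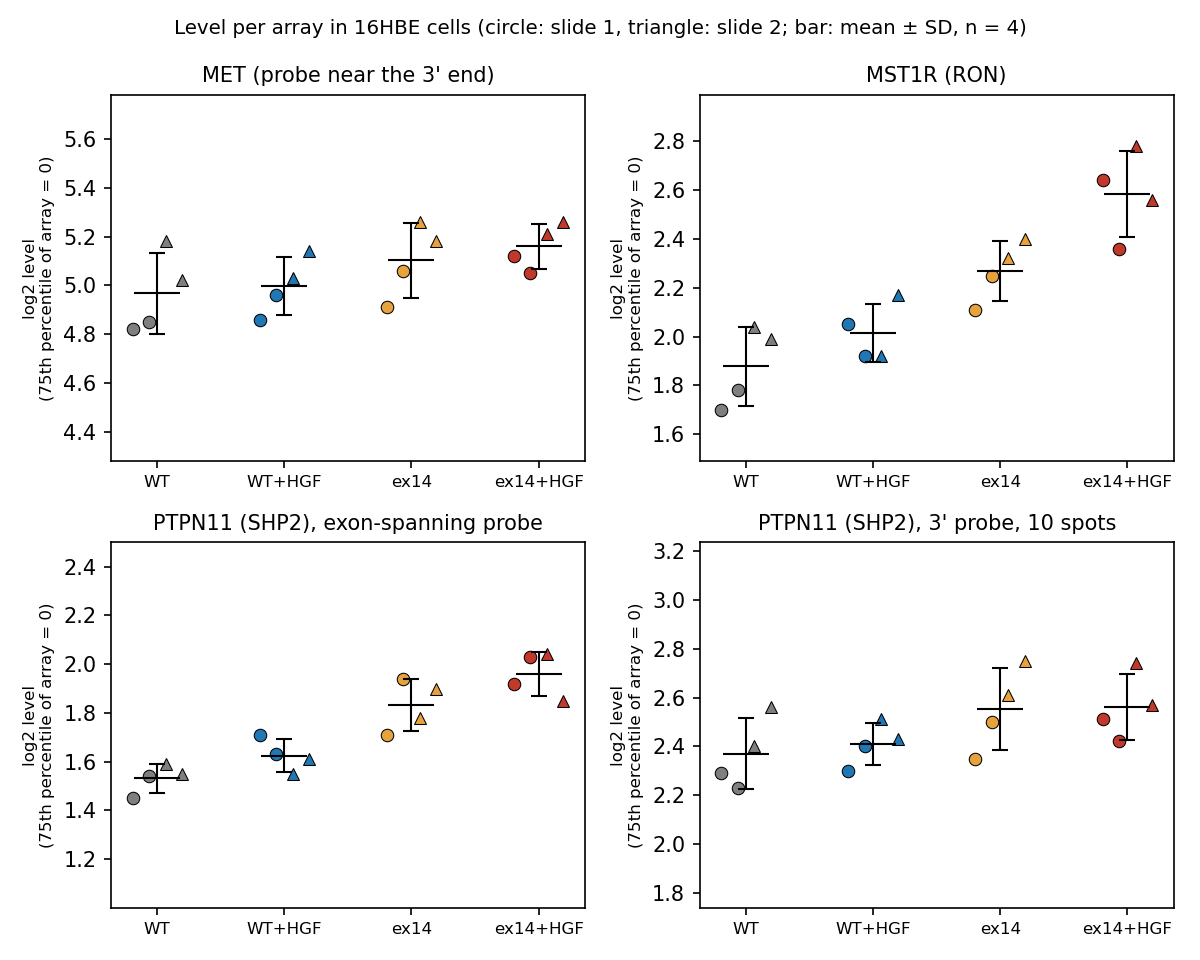
Log2 level (75th percentile of the array set to 0) of MET, MST1R and the 2 PTPN11 probes on each of the 16 arrays, by group, with circles for slide 1 and triangles for slide 2, and the mean ± SD (n = 4) as bars. Every panel spans the same number of log2 units. The MET groups overlap, while MST1R and the PTPN11 junction probe are higher in every 16HBE-ex14 array than in every 16HBE-WT array at the same HGF state.

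ST14 encodes matriptase, a membrane-bound serine protease that can cut pro-HGF into its active form, and its levels sat within a narrow range. They were 1.65, 1.62, 1.79 and 1.69 in 16HBE-WT and 1.63, 1.55, 1.55 and 1.71 in 16HBE-WT+HGF. In 16HBE-ex14 they were 1.54, 1.62, 1.68 and 1.62, and in 16HBE-ex14+HGF 1.46, 1.48, 1.38 and 1.46. The 16HBE-ex14+HGF arrays were the 4 lowest of all 16. The HGF change in 16HBE-ex14 was -0.17 (SE 0.07, limma adjusted p = 0.306), and the genotype difference with HGF was -0.16 (SE 0.07, limma adjusted p = 0.146), so that neither passed the test. In 1 of 12 other settings of the processing, the genotype difference of ST14 with HGF had a limma adjusted p of 0.0258, still under 1.5-fold. The ST14 probe lies at chr11:130079815-130079874.

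HPN encodes hepsin, another membrane protease able to activate pro-HGF, and its probe was not well above background on any of the 16 arrays. No change of HPN could be measured, and it was not among the tested probes.

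Both Kunitz-type inhibitors were present on every array, and the group means of SPINT2 were 8.03 ± 0.08 (16HBE-WT), 7.96 ± 0.12 (16HBE-WT+HGF), 7.98 ± 0.10 (16HBE-ex14, untreated) and 7.95 ± 0.07 (16HBE-ex14+HGF), with SD and n = 4 each. The 4 tested differences of SPINT2 lay between -0.07 and -0.01, and the confidence intervals all lay between -0.25 and 0.17. SPINT1, the hepatocyte growth factor activator inhibitor that pairs with matriptase, was at 2.45, 2.37, 2.43 and 2.59 in 16HBE-WT and at 2.45, 2.52, 2.27 and 2.38 in 16HBE-WT+HGF. It was at 2.53, 2.49, 2.71 and 2.44 in 16HBE-ex14 and at 2.58, 2.56, 2.62 and 2.54 in 16HBE-ex14+HGF. With HGF the 16HBE-ex14 arrays were all above the 16HBE-WT arrays, by 0.17 on average (SE 0.09, 1.13-fold, limma adjusted p = 0.194), and the groups overlapped in the other comparisons. In 1 of 12 other settings of the processing, this SPINT1 difference with HGF had a limma adjusted p of 0.0395, still under 1.5-fold. The SPINT1 probe lies at chr15:41149316-41149375 and the SPINT2 probe at chr19:38782859-38782918.

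The adaptors showed no difference that passed the test, and one of them was measured with little precision. GAB1, the docking protein that binds MET and recruits PTPN11, was dim though well above background on all 16 arrays. Its levels were -2.68, -3.20, -2.37 and -2.00 in 16HBE-WT and -2.20, -2.65, -2.39 and -2.20 in 16HBE-WT+HGF. They were -2.35, -2.20, -2.20 and -2.08 in 16HBE-ex14 and -2.19, -2.42, -1.92 and -1.73 in 16HBE-ex14+HGF. The spread within 16HBE-WT was the widest, and all groups overlapped. The genotype differences of GAB1 were 0.35 without HGF (95% interval -0.11 to 0.82, limma adjusted p = 0.303) and 0.30 with HGF (-0.16 to 0.76, limma adjusted p = 0.389), and these intervals do not exclude a 1.5-fold rise.

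GRB2, the adaptor that links receptors to SOS and RAS, had group means of 2.47 ± 0.17, 2.37 ± 0.19, 2.27 ± 0.17 and 2.31 ± 0.25 (SD, n = 4 each), in the order untreated 16HBE-WT, 16HBE-WT+HGF, untreated 16HBE-ex14, 16HBE-ex14+HGF. Its genotype difference without HGF was -0.20 (-0.50 to 0.11, limma adjusted p = 0.39), and its arrays on slide 2 were higher in all 4 groups, by 0.31 on average. CBL, the ligase whose docking site is lost with exon 14, had means of 0.05 ± 0.14, 0.16 ± 0.08, 0.12 ± 0.13 and 0.14 ± 0.17 (SD, n = 4 each) in the same order. The CBL differences lay between -0.03 and 0.11, with intervals from -0.25 to 0.34, so that a 1.5-fold change of its RNA lay outside each of them. The probes lie at chr4:144390452-144390511 for GAB1, chr17:73314862-73314921 for GRB2 and chr11:119178466-119178525 for CBL.

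PTPN11 encodes SHP2, the phosphatase that is recruited by GAB1 and keeps RAS signalling on, and 1 of its probes had an adjusted p below 0.05 between the genotypes. The junction probe, within the coding part of the transcript, read 1.45, 1.54, 1.59 and 1.55 in 16HBE-WT and 1.71, 1.63, 1.55 and 1.61 in 16HBE-WT+HGF. It read 1.71, 1.94, 1.78 and 1.90 in 16HBE-ex14 and 1.92, 2.03, 2.04 and 1.85 in 16HBE-ex14+HGF. As for MST1R, each 16HBE-ex14 array was above each 16HBE-WT array at the same HGF state. The difference was 0.30 without HGF (SE 0.08, 1.23-fold, limma adjusted p = 0.0185) and 0.33 with HGF (SE 0.08, 1.26-fold, limma adjusted p = 0.00835). Without HGF, the adjusted p rose above 0.05 when 16HBE-WT replicate 1 (0.0595) or 16HBE-ex14 replicate 2 (0.0569) or 4 (0.0547) was left out, with dim probes kept (0.0569), and in the fit of the compared groups alone (0.0794).

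The PTPN11 3′ probe, printed as 10 spots on each array and averaged, read 2.29, 2.23, 2.40 and 2.56 in 16HBE-WT and 2.30, 2.40, 2.51 and 2.43 in 16HBE-WT+HGF. It read 2.35, 2.50, 2.61 and 2.75 in 16HBE-ex14 and 2.51, 2.42, 2.74 and 2.57 in 16HBE-ex14+HGF, so that the groups overlapped. Its genotype differences were 0.18 (limma adjusted p = 0.286) and 0.15 (limma adjusted p = 0.386), of the same sign as those of the junction probe and not past the test. In an exact two-sided permutation test over 16 arrays, added after the values were seen, the genotype difference of the junction probe exceeded that of the 3′ probe by 0.15 (p = 0.0552), and p lay between 0.0193 and 0.109 when 1 array was left out. The excess was 0.17 on slide 1 (exact two-sided permutation p = 0.0571) and 0.12 on slide 2 (p = 0.171). By the same permutation test it was 0.12 without HGF (p = 0.257) and 0.18 with HGF (p = 0.143). Each of these 4 tests used 8 arrays, where the smallest possible p was 0.0286. With labels of all 16 arrays permuted only within slides, each holding 2 arrays of every group, the exact two-sided p was 0.00857. The junction probe minus the 3′ probe was lower on slide 2 (mean -0.77 in 16HBE-ex14 and -0.90 in 16HBE-WT) than on slide 1 (-0.54 and -0.72). Permutation across slides keeps this shift in its spread, and permutation within slides does not. The outcome thus depended on how the slides were handled, and the pair of probes was chosen from these same values. The array's annotation lists the transcripts NM_002834 and NM_001330437 for both probes, and NM_080601 for the junction probe but not among the up to 4 transcripts it gives for the 3′ probe. Pseudogenes with near-identical sequence exist for PTPN11, so that its values are uncertain where a probe may bind their transcripts. The remaining PTPN11 probe, for the transcript ENST00000531326 at chr12:112856419-112856478, was well above background on 4 of the 16 arrays (1 of 16HBE-WT, 1 of 16HBE-ex14 and 2 of 16HBE-ex14+HGF). It was counted among the 11 tested probes. Its log2 changes between 2 groups ran from -0.91 to 0.70 with an SE of 0.63, and none was called. They rest mostly on signals below the background limit and are not read as folds.

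**Figure D2:**
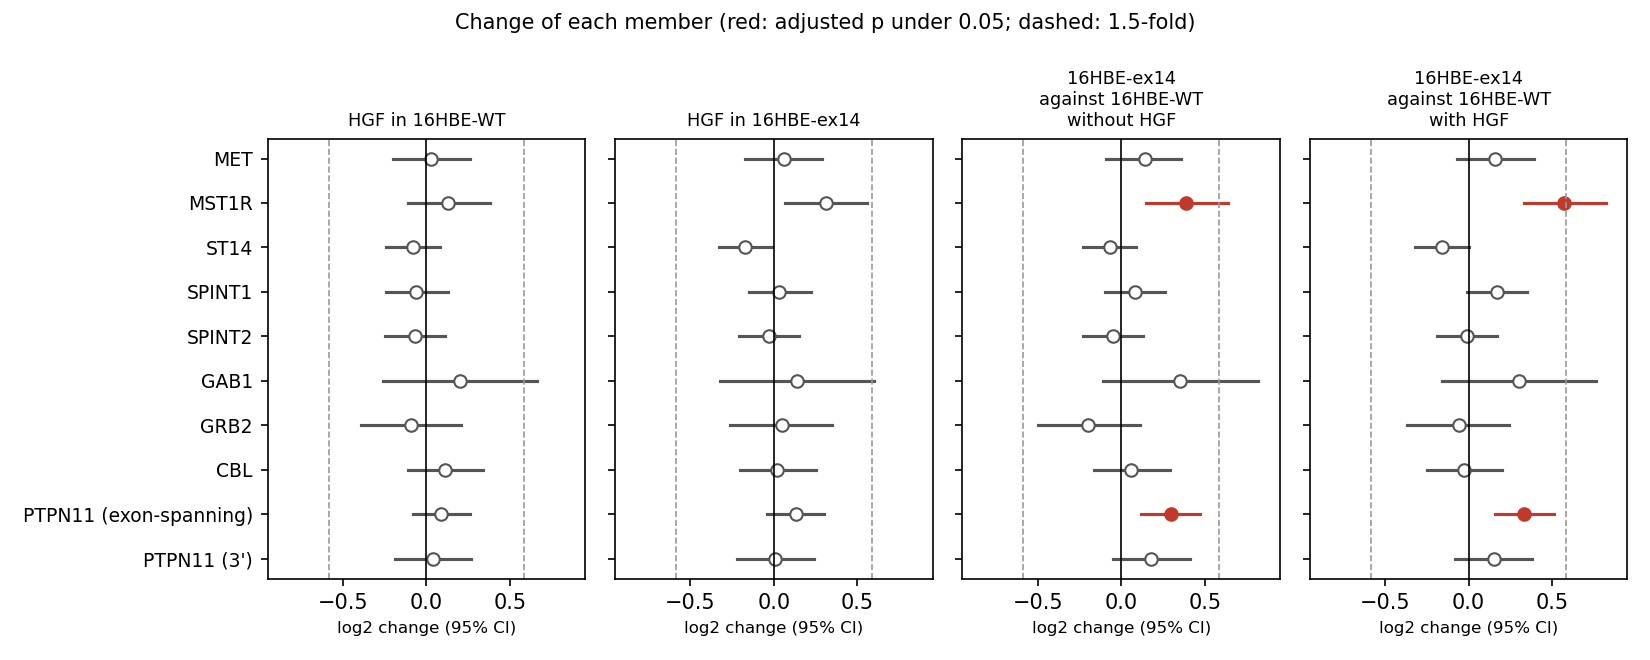
Log2 change with its 95% confidence interval for 10 member probes well above background on all arrays, in 4 comparisons. Red marks an adjusted p under 0.05 (limma, Benjamini-Hochberg over all probes) and dashed lines mark 1.5-fold. MST1R and the PTPN11 junction probe are red in both genotype comparisons with changes under 1.5-fold, and every MET interval lies between the dashed lines.

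By the rule of an adjusted p below 0.05 and over 1.5-fold, 0 of the 11 member probes were called for HGF in 16HBE-WT (0% of all tested probes were), 0 for HGF in 16HBE-ex14 (2%), 0 for 16HBE-ex14 against 16HBE-WT without HGF (9.4%), 0 with HGF (10.8%) and 0 for the difference between the HGF responses (0%), all by limma. At an unadjusted p under 0.05 the member counts were 0, 2, 2, 3 and 0 in the same order, where 4.9%, 14.2%, 30.3%, 31.7% and 4.62% of all tested probes passed. At an adjusted p below 0.05 with any fold, no member passed for HGF in either genotype (0% of all probes in 16HBE-WT and 2.88% in 16HBE-ex14). For the genotypes 2 of 11 passed at either HGF state, MST1R and the PTPN11 junction probe, beside 18.3% of all probes without HGF and 20.6% with HGF. The groups did not overlap for 0, 1, 2 and 4 of the 11 probes in the first 4 comparisons, beside 2.62%, 8.84%, 21.4% and 23.9% of all probes. The 4 with HGF between the genotypes were MST1R, the PTPN11 junction probe and SPINT1, which were higher in 16HBE-ex14, and ST14, which was lower. The median change of the members was 0.03, 0.05, 0.08 and 0.16 in these comparisons, where the median over all tested probes was 0.04, 0.05, -0.02 and 0.00.

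**Figure D3:**
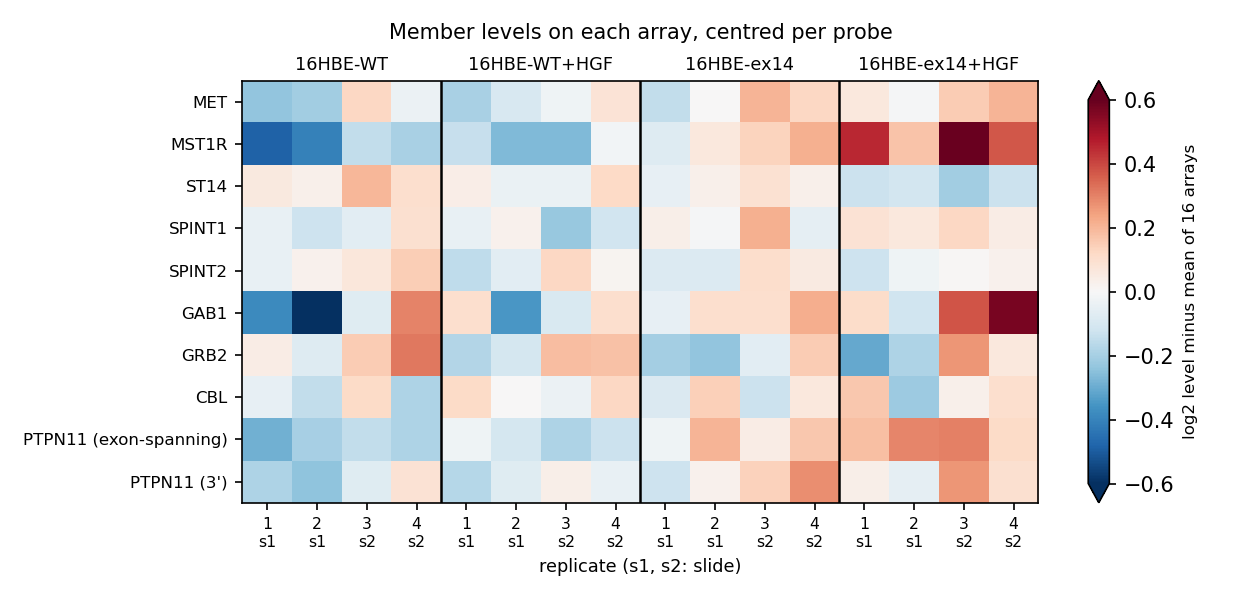
Level of each member probe on each array minus that probe's mean over the 16 arrays (log2 units, red higher, blue lower), with arrays in columns by group and replicate and the slide named below (s1, s2). For MST1R and the PTPN11 junction probe, all 8 arrays of 16HBE-WT cells lie below the probe's mean and all 8 of 16HBE-ex14 cells above it, except untreated 16HBE-ex14 replicate 1, which lies below, and the means of MET and GRB2 are higher on slide 2 in every group.

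The variation of MET from array to array ran together with that of some members and other genes. Over the 16 arrays, Pearson's r with MET was 0.80 for the PTPN11 3′ probe, 0.76 for MST1R and 0.70 for GAB1, and -0.11 for ST14. After each group's mean was subtracted, r with MET was 0.74 for MST1R, 0.72 for the PTPN11 3′ probe, 0.71 for SPINT2, 0.66 for GRB2, 0.64 for ST14 and 0.57 for GAB1, but 0.30 for CBL and 0.12 for SPINT1. These arrays share slides and a scaling, and 16 points of 4 groups are not independent, so that the values are a description. Among 26367 genes, each read by its brightest probe, the 5 with the highest r with MET were PTCD1 (0.95), PDCD6IPP2 (0.95), CHSY1 (0.93), IL17RA (0.93) and SEC31A (0.93). With the group means removed, r with MET stayed between 0.91 and 0.93 for these genes. All 5 were higher on slide 2 in all 4 groups, by 0.20 to 0.36, as MET was by 0.21, and none of them was called in any comparison. The part of the slide in these likenesses was not tested.

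Around the members, a list of 55 further genes of the HGF-MET route (ligands and their proteases, adaptors, kinases, phosphatases, co-receptors and regulators of receptor turnover) was counted in the same fit. Of these, 53 genes with 84 probes were tested. Neither HGF nor MUC20, a mucin that binds the MET tail, was bright enough to test, and both HGF probes were below the background limit on all 16 arrays. The probes called numbered 0 for HGF in 16HBE-WT, 3 of 84 for HGF in 16HBE-ex14 (2% of all tested probes were called), 8 of 84 for the genotypes without HGF (9.4% of all) and 9 of 84 with HGF (10.8% of all), so that the share of the list was near that of the array. All 3 probes called for HGF were higher. Between the genotypes, 5 were higher and 3 lower without HGF, and 5 were higher and 4 lower with it.

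LRIG1, a membrane protein known to promote the degradation of receptor tyrosine kinases, MET among them, had the largest genotype difference among the called genes of the list. Its levels were 0.61, 0.57, 0.77 and 0.71 in 16HBE-WT and 0.43, 0.58, 0.53 and 0.64 in 16HBE-WT+HGF. They were -1.63, -1.91, -1.74 and -1.72 in 16HBE-ex14 and -2.08, -2.24, -1.96 and -1.96 in 16HBE-ex14+HGF. The 2 genotypes were far apart at either HGF state. LRIG1 was 5.33-fold lower in 16HBE-ex14 without HGF (log2 change -2.41, SE 0.09, limma adjusted p = 1.2e-09) and 6.07-fold lower with HGF (-2.60, SE 0.09, limma adjusted p = 8.32e-10). With normexp the LRIG1 differences were smaller, -1.70 and -1.73, and still called. Its HGF change in 16HBE-ex14 was -0.31 and missed the test (limma adjusted p = 0.106). The LRIG1 probe lies at chr3:66429597-66429656.

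GRB10, an adaptor that binds activated receptor kinases, was higher in 16HBE-ex14 on its brightest probe, 2.09-fold without HGF (log2 change 1.06, limma adjusted p = 0.0151) and 2.3-fold with HGF (limma adjusted p = 0.00659). Its second GRB10 probe gave 1.32 and 1.53, and both called probes lie within chr7:50657752-50657872. The dimmest GRB10 probe changed by -0.54 and -0.34 and was not called (limma adjusted p = 0.23 and 0.474). The call of the brightest GRB10 probe without HGF was lost when 16HBE-WT replicate 1 was left out (0.94, limma adjusted p = 0.0516). RANBP10, a relative of the MET-binding protein RANBP9, was higher in 16HBE-ex14 by 0.66 without HGF (SE 0.10, limma adjusted p = 0.000499) and by 0.65 with HGF (SE 0.10, limma adjusted p = 0.000471). The 16HBE-ex14 levels of RANBP10 ran from 3.08 to 3.37 and the 16HBE-WT levels from 2.43 to 2.77, with HGF or without, and its probe lies at chr16:67757138-67757197.

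NRP1, a co-receptor of several growth factors, and CD44, a hyaluronan receptor of which some forms assist MET, were the genes of the list called for HGF in 16HBE-ex14. Not every probe of them was called. The dimmer CD44 probe rose by 0.58 (limma adjusted p = 0.139) and the dimmest NRP1 probe by 1.11 (limma adjusted p = 0.0618). In 16HBE-WT these 2 probes changed by 0.40 and 0.24 and were not called. The brightest CD44 probe was at 5.39, 5.07, 5.77 and 5.26 in 16HBE-ex14 and at 6.10, 6.15, 6.23 and 6.20 in 16HBE-ex14+HGF, a rise of 0.80 (SE 0.13, 1.74-fold, limma adjusted p = 0.00498), which lost its call when only these 2 groups were fitted (limma adjusted p = 0.058). In 16HBE-WT the same CD44 probe rose from 5.13, 5.54, 5.39 and 5.36 to 5.77, 5.55, 5.79 and 5.76 without overlap, by 0.36, which did not pass (limma adjusted p = 0.92), and the 2 HGF changes were not shown to differ (0.43, limma adjusted p = 1). The brightest NRP1 probe rose by 0.93 in 16HBE-ex14 (limma adjusted p = 0.0384) and the second by 0.96 (limma adjusted p = 0.0127), with 0.67 and 0.68 in 16HBE-WT (limma adjusted p = 0.879 and 0.864). Both of these NRP1 probes rose in 16HBE-WT without overlap of the groups and by over 1.5-fold. No probe of the list was called for the difference between the HGF responses of the genotypes. The call of the second NRP1 probe was lost without 16HBE-ex14 replicate 2 (limma adjusted p = 0.054) or 16HBE-ex14+HGF replicate 3 (0.0525), when arrays were scaled to their median (0.0505), and when only the compared groups were fitted (0.0666). The brightest NRP1 probe stayed called in 6 of the 16 fits that left out 1 array, and lost its call in the other 10, namely those without 16HBE-WT replicate 3, 16HBE-WT+HGF replicate 1 or 2, 16HBE-ex14 replicate 1, 2 or 4, or any 16HBE-ex14+HGF array (adjusted p up to 0.134). It also lost its call in 5 of 12 other alternatives, namely median and spike-in scaling, dim probes kept, the compared groups alone, and no moderation of variances across probes (limma adjusted p up to 0.106).

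Between the genotypes, NRP1 was called on its second probe, with 0.79 without HGF (limma adjusted p = 0.00877) and 1.06 with it (limma adjusted p = 0.00102), while the brightest NRP1 probe gave 0.39 and 0.65 and was not called (limma adjusted p = 0.276 and 0.0563). The dimmest NRP1 probe, well above background on 13 arrays, was called as well, at 0.91 (limma adjusted p = 0.0455) and 1.78 (limma adjusted p = 0.000647). With HGF, the brightest NRP1 probe gained a call in 6 of 12 other alternatives (lowest limma adjusted p = 0.0197). It also gained a call in 3 of the 16 fits that left out 1 array. The second NRP1 probe lost its call without HGF under normexp (0.44) and in the fit of the compared groups alone (limma adjusted p = 0.0594). With normexp the dimmest NRP1 probe gave 0.05 and 0.34 and was not called, and its call without HGF was also lost with dim probes kept (limma adjusted p = 0.0836), with the compared groups alone (0.106) and without moderation (0.0657). That call stayed in 4 of the 16 fits that left out 1 array, those without 16HBE-WT replicate 2, 16HBE-WT+HGF replicate 1 or 2, or 16HBE-ex14+HGF replicate 3.

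The remaining genes of the list that were lower in 16HBE-ex14 rested, like LRIG1, on 1 probe each. PLCG1, a phospholipase that MET activates, was lower on 1 of 3 probes by 0.71 on the log2 scale at both HGF states (-0.71, limma adjusted p = 0.00121 and 0.00104), whereas its brightest probe changed by 0.23 and 0.25 (limma adjusted p = 0.707 and 0.67). The PLCG1 calls fell under 1.5-fold with normexp (-0.48 and -0.51) and, without HGF, with arrays scaled to their median (-0.57). TMPRSS13, a membrane protease able to activate pro-HGF, was lower on its dimmer probe (-0.65, limma adjusted p = 0.00567, and -0.92, limma adjusted p = 0.000398). Its brightest TMPRSS13 probe changed by 0.33 without HGF (limma adjusted p = 0.0165) and by -0.16 with it (limma adjusted p = 0.24), so that the probes of this gene disagree. The TMPRSS13 call without HGF fell under 1.5-fold without 16HBE-WT replicate 1 (-0.57) or 16HBE-ex14 replicate 3 (-0.58), with normexp (-0.42), with median scaling (-0.51, limma adjusted p = 0.0791), and with spike-in scaling (-0.56). With HGF it fell under 1.5-fold with normexp (-0.57). MAPK3, the kinase ERK1, was called between the genotypes with HGF (-0.60, limma adjusted p = 0.000747) and stood at -0.38 without it (limma adjusted p = 0.0169), and the call fell under 1.5-fold without 16HBE-WT+HGF replicate 4 or 16HBE-ex14+HGF replicate 4 (-0.56 each), with normexp (-0.48), with median scaling (-0.50), and with spike-in scaling (-0.56).

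**Figure D4:**
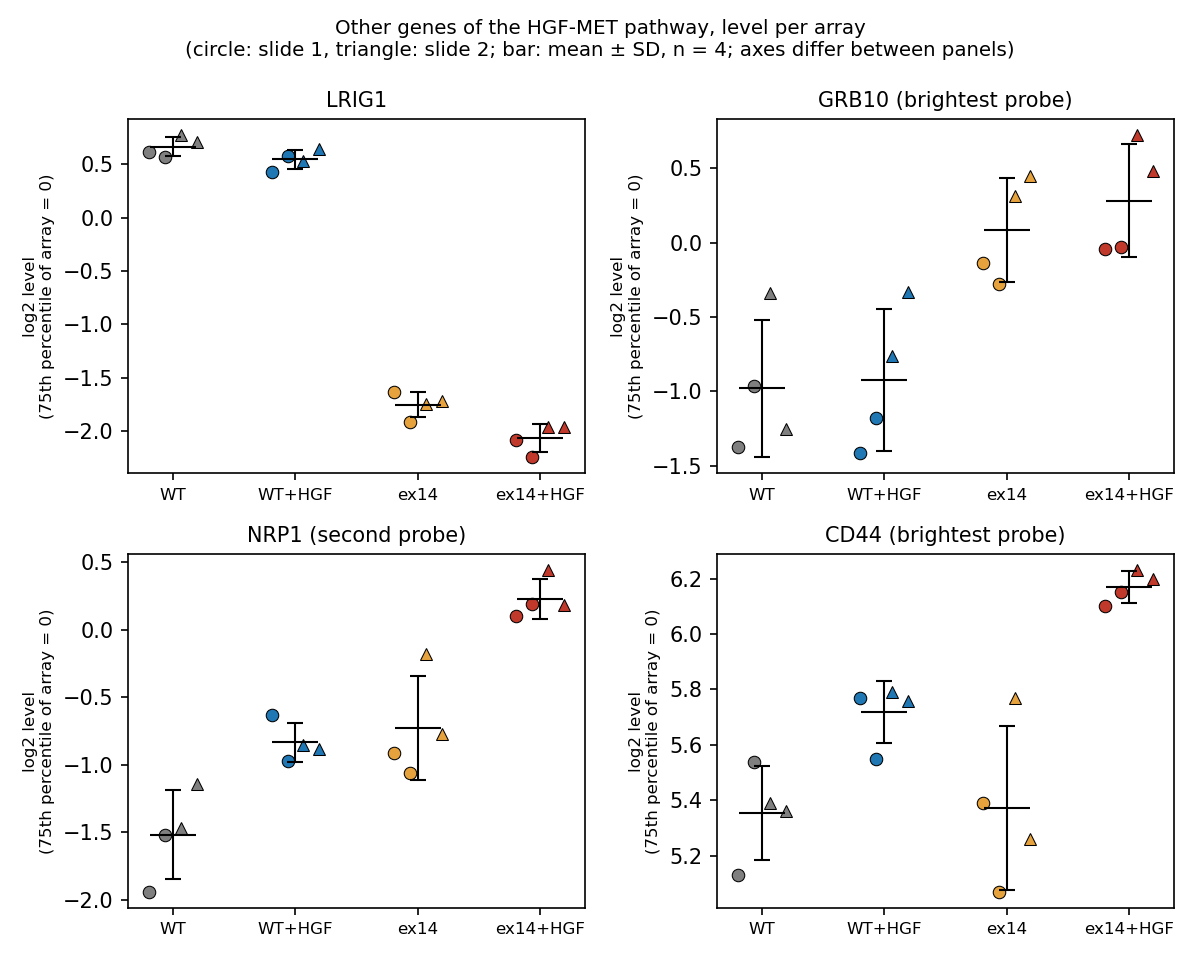
Log2 level of LRIG1, GRB10, NRP1 and CD44 on each array by group (75th percentile of the array set to 0), with the mean ± SD (n = 4) and the slide as circle or triangle. The y axes differ between panels. LRIG1 falls from 0.57 to 0.77 in 16HBE-WT to -1.91 to -1.63 in 16HBE-ex14, and CD44 is highest in the 4 arrays of 16HBE-ex14+HGF.

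The labelled cell type was checked against its markers, and all 7 epithelial markers (EPCAM, CDH1, KRT8, KRT18, KRT19, CLDN4 and KRT5) were well above background on all 16 arrays. The mean level of KRT5, a basal-cell keratin, was 2.62 in 16HBE-WT and 0.05 in 16HBE-ex14 without HGF, and 2.00 and -2.26 with HGF. Of the markers of other cells, COL1A2, COL3A1 and PECAM1 were at background on every array. The fibroblast markers COL1A1 and PDGFRB and the endothelial markers CDH5 and VWF were well above background on all 16 arrays. Their mean log2 levels in the groups lay between -3.32 and -1.36. The summed linear signal of the 5 fibroblast markers, in units of the array's 75th percentile, ran from 0.533 to 1.02 in untreated and 0.545 to 0.787 in HGF-treated 16HBE-WT cells, and from 0.313 to 0.497 in untreated and 0.39 to 0.397 in HGF-treated 16HBE-ex14 cells, against 1750 to 2190 for the epithelial markers. LUM was above background on all 8 arrays of 16HBE-WT cells and on none of 16HBE-ex14 cells, and the part of these markers in the genotype differences was not tested. The 3 leukocyte markers were above background on all arrays, with sums of 0.64 to 1.27, and the 3 endothelial markers summed to 0.258 to 0.558. The 75th percentile of the arrays ran from 140 to 263 intensity units, between 49% and 60.3% of probes were well above background, and pairs of arrays correlated at 0.9686 or more over tested probes.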

How the data were processed

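Total RNA of 16HBE cells was labelled with Cy3 and hybridised to Agilent arrays, 4 per group. The authors deposited the intensity of each of 62976 spots per array as the processed signal of Agilent Feature Extraction 10.7.3.1, a linear value after background subtraction and detrending, not scaled between arrays. Their value table for the whole series is identical. From these, spots with an outlier mark were left out, log2 was taken, the 75th percentile of the array was subtracted and spots of a probe were averaged (R 4.3.3, limma 3.58.1, and figures with Python 3.11.15 and matplotlib 3.10.9). The tested probes, 34600 of 58201, had to be well above background on 4 or more of 16 arrays, and limma was fitted with 1 mean per group and 5 comparisons. The fit was tried on simulated data with independent noise. That noise lacks the likeness of arrays on the same slide, so that the trial does not show how the fit handles it.

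The members and lists were chosen with earlier results of these data known. Named were all members, the genes called in the list of 55, and the 5 genes most like MET. The methods state replicates cultured 1 week apart, and the labels do not pair them. Alternatives changed the background correction, scaling, filters, outlier spots, blocks, prior and arrays one at a time. A comparison of MET probes with each other was planned and could not be made with 1 probe. The number of arrays limits the precision. Gene positions other than the probes' own, and protein sequences, were not used here. Titles of the 16HBE-WT+HGF samples carry another genotype code, and their genotype label was followed.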

Additional observations from a re-analysis of the deposited data

How the results depend on the processing

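For 16HBE-ex14 against 16HBE-WT with HGF, 1 member probe (MST1R) was called instead of 0 with normexp, with scaling to the array median and with the E1A spike-ins as the scale, and 2 with no fold limit (MST1R and the PTPN11 junction probe). Leaving out 1 array gave 0 to 1 there, with 1 without 16HBE-ex14+HGF replicate 2 or without 16HBE-WT+HGF replicate 4. Without HGF the count was 2 with no fold limit and otherwise 0. In the remaining comparisons it was 0 in each fit run, the fit with the array row as a replicate block included, which also left both genotype counts at 0. Arrays of different groups in the same slide row correlated in their deviations from the group means at 0.19 on average (lowest 0.03), and those in another row of the slide at 0.21, so that rows were not taken as pairs. Those on different slides correlated at -0.20 on average (-0.36 to 0.03), and the main fit had no term for the slide. With the slide as a block, 825 probes of all were called for HGF in 16HBE-ex14. Between the genotypes 3538 were then called without HGF and 4112 with HGF. Over the genes named, 82 values that were uncalled in both settings had another sign, over 29 settings. For MET these were 5 for HGF in 16HBE-WT (array median -0.08, quantile normalization 0.00 after rounding, and -0.02 to -0.01 without 16HBE-WT replicate 1 or 2 or 16HBE-WT+HGF replicate 4), 3 for HGF in 16HBE-ex14 (array median -0.10, spike-ins -0.01, and 0.00 after rounding without 16HBE-ex14 replicate 1) and 6 for the difference between the HGF responses (-0.04 to -0.01). Scaling moved the median of all probes by over 0.1: to -0.11 for HGF in 16HBE-ex14 and 0.12 for the genotypes without HGF under the array median, and normexp gave -0.13 and -0.14 for the genotypes. Probes called between the genotypes were then 1814 with normexp against 3749 with HGF and 1489 against 3252 without, and the share of higher calls without HGF was 71.8% under the array median and 48% as reported. For HGF in 16HBE-ex14, 693 probes were called, but 246 in the fit of these groups alone, 411 with normexp, 442 without 16HBE-ex14+HGF replicate 4, 377 without its replicate 3, and 346 and 374 without 16HBE-ex14 replicate 2 and 4. The comparison of MET probes with each other, and its settings, could not be run with 1 probe. The exact p of the PTPN11 probe difference was 0.0295 with normexp, 0.0306 with quantile normalization, 0.044 with outlier spots kept and 0.00857 with labels permuted within slides. The cause of these shifts was not tested. Signal over background limits HPN, not well above background on any array, and the PTPN11 probe read on 4 of 16 arrays.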
